A study of Homo sapiens with 2 samples.

Results

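Genes of the splicing machinery were read on 2 expression arrays of the human gastric cancer line NUGC4, 1 from a culture given siRNA against ANO5 and 1 from a culture given a negative control siRNA. The genes were taken by the start of their symbols: SRSF, HNRNP, SF3A or SF3B, SNRP, U2AF, PRPF and LSM with a number where the family has one. This gave 80 genes of the 14526 that could be named, and 75 of them were measured, meaning that the mean of both arrays was at or above 6.05 on the deposited log2 scale, as it was for 9735 genes in all. Both siRNAs were used at 20 nmol/l, and per the labels' protocols the cells had been seeded 24 h before. With 1 array a group there was no test and no replicate error, and every difference below compares these 2 RNA samples only. The number of arrays limits the precision.

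Introns are removed by the spliceosome, which is built anew on each intron from small nuclear ribonucleoproteins (snRNPs). U1 marks the upstream splice site, and U2AF and U2 mark the branch point and the downstream site. The U4/U6.U5 tri-snRNP then joins, and the complex rearranges into its active form. SR proteins (SRSF genes) mostly help the machinery to recognise exons, and many hnRNP proteins (HNRNP genes) counter or tune this choice, so the balance of these families shapes alternative splicing. Most of these genes are expressed in every dividing cell.

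ANO5 itself, which encodes the membrane protein anoctamin 5, had a log2 signal of 3.67 with ANO5 siRNA, against 6.83 with control siRNA. Its mean of 5.25 lies below the measured range set out above, and its difference of -3.16 became -2.18 with a pseudocount of 16 on the linear scale. All 8 epithelial markers were measured, with log2 signals of 10.25 to 17.37 with ANO5 siRNA, against 9.24 to 17.06 with control siRNA, and 4 of the 8 were at least 1.5-fold higher, as were 23.2% of all measured genes. Of 7 listed fibroblast markers, 3 had a value here and 1 was in the measured range. Among 6 blood markers 5 had a value and 2 were measured, and among 4 endothelial markers 2 had a value and 1 was measured. COL1A1 (4.62 with ANO5 siRNA, 4.58 with control siRNA), PTPRC (3.49 and 3.68 in the same order) and KDR (3.02 and 3.89) lay below the measured range. The measured ones were COL1A2 (7.92 with ANO5 siRNA, 8.03 with control siRNA), LYZ (9.80 and 10.88 in the same order), CD68 (7.34 and 7.66) and VWF (7.66 and 7.14). Their part in the results was not tested. In such whole-culture RNA, fewer cells of a kind and less RNA per cell cannot be told apart.

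The splicing genes leaned to lower signal with ANO5 siRNA, by small steps. Of the 75 measured genes, 55 (73.3%) had a lower signal, where 45.2% of all measured genes did. At 1.5-fold or more, 24 were lower (32%), beside 20.1% of all measured genes, and 2 were higher (2.67%), beside 23.2%. In either direction 26 passed 1.5-fold, or 34.7%, beside 43.3% of all measured genes. The median log2 difference, ANO5 siRNA minus control siRNA, was -0.30, beside 0.07 over all measured genes, and the SD over genes was 0.71, beside 0.94.

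At 2-fold or more there were 10 splicing genes, 13.3% of those measured, a smaller share than the 22.5% of all measured genes. SNRPB2, LSM4, HNRNPH3, PRPF19, PRPF4, SNRPC, PRPF3 and HNRNPCL1 were lower (10.7%), near the 11.3% of all measured genes. SNRPA1 and LSM1 were higher (2.67%), beside 11.2%. Of the 10 genes, 3 passed 3-fold, or 4% of those measured, beside 8.89%. HNRNPCL1 lay exactly on the 2-fold line (a difference of -1), whereas PRPF38B and SF3B5, both at -0.99, fell just short of it. The mean of both arrays was 10 or more for 66 of the 75 genes. Within that range, chosen after seeing the data, 31.8% were at least 1.5-fold lower, beside 19.1% of the 4380 genes there, and 3.03% were higher, beside 24.1%. At 2-fold in either direction these shares were 12.1% and 21.5%.

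**Figure D1:**
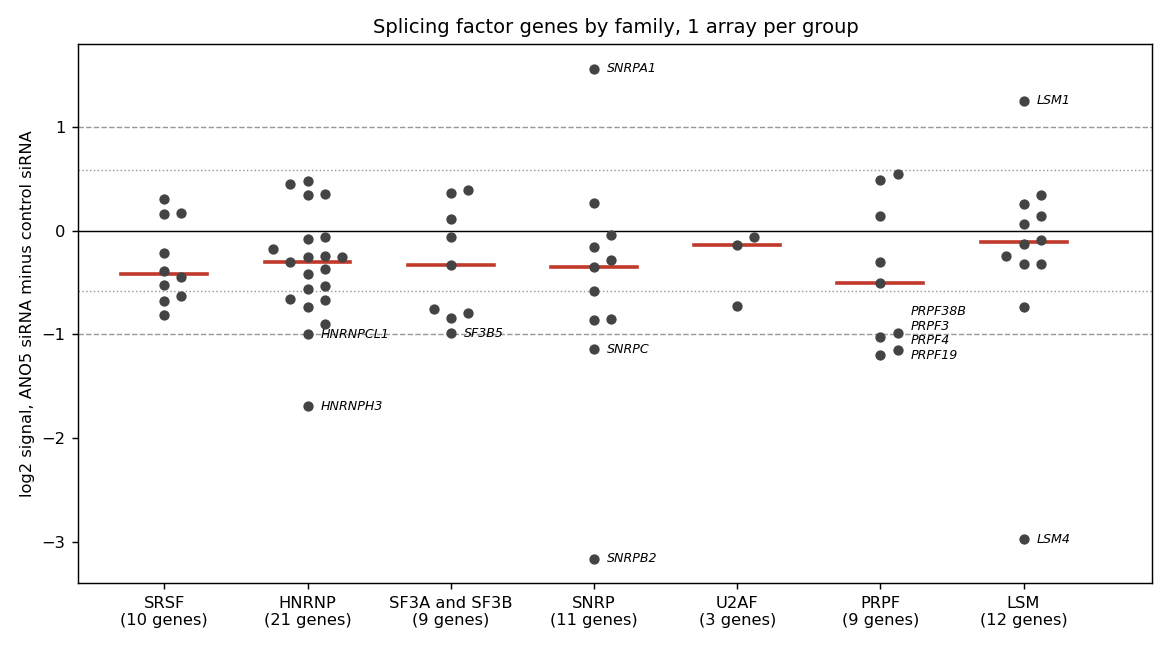
Difference in log2 signal between the ANO5 siRNA and the control siRNA array for the 75 measured splicing genes, by family, with 1 point per gene, a red line at the family's median, dotted lines at 1.5-fold and dashed lines at 2-fold. Genes near or past 2-fold are named. All 7 medians lie between -0.50 and -0.11, and SNRPB2 (-3.16) and LSM4 (-2.97) lie far below the rest of their families.

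Every family had a median below 0. The medians were -0.50 for 9 PRPF genes, -0.42 for 10 SRSF genes, -0.35 for 11 SNRP genes, -0.33 for 9 SF3A and SF3B genes, -0.30 for 21 HNRNP genes, -0.14 for 3 U2AF genes and -0.11 for 12 LSM genes. These differences between medians are small beside the spread of single genes, whose SD within a family ran from 0.37 (U2AF) to 1.14 (SNRP). Counts past 1.5-fold were 4 lower of 9 in PRPF and in SF3A and SF3B, 4 lower and 1 higher of 11 in SNRP, 6 lower of 21 in HNRNP, 3 lower of 10 in SRSF, 1 lower of 3 in U2AF, and 2 lower and 1 higher of 12 in LSM. Of all measured genes 20.1% were lower and 23.2% higher, so the share of lower genes in LSM, 16.7%, lay below that of all genes, and in the other families it ran from 28.6% to 44.4%, over few genes each. Differences of the SRSF, HNRNP, SF3 and U2AF genes had an SD of 0.47 over 43 genes. Over the 32 SNRP, PRPF and LSM genes, which include SNRPB2 and LSM4, it was 0.95. This split was not planned and puts both of these genes on 1 side. Another unplanned split gave 0.48 over 31 SRSF and HNRNP genes, beside 0.85 over the 44 others. Among the 43, HNRNPH3 and HNRNPCL1 alone reached 2-fold (4.65%), beside 25% of the 32 and 22.5% of all measured genes.

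**Figure D2:**
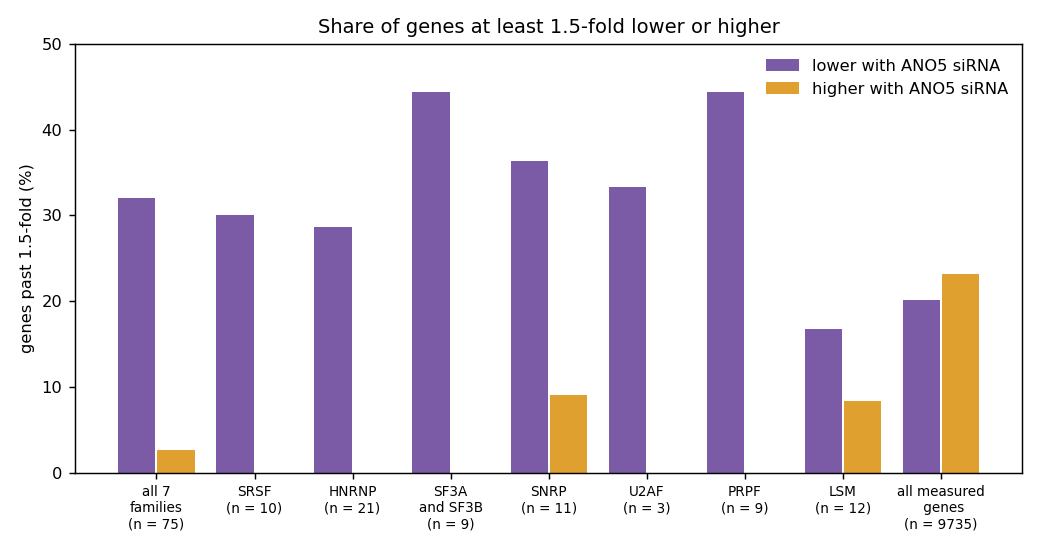
Percentage of measured genes at least 1.5-fold lower (purple) or higher (orange) with ANO5 siRNA, for the 7 families together, each family and all 9735 measured genes. Higher genes make up 2.67% of the splicing genes and 23.2% of all measured genes.

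The steepest contrast lay within U2 snRNP. SNRPB2 and SNRPA1 encode the B-double-prime and A-prime proteins, which bind each other and sit together on a stem-loop of U2 snRNA. SNRPB2 had a log2 signal of 9.95 with ANO5 siRNA, against 13.11 with control siRNA, which is 8.94-fold lower. Only 0.534% of measured genes had as low a difference. SNRPA1 went the other way, with 14.66 with ANO5 siRNA, against 13.10 with control siRNA, which is 2.95-fold higher, and 96.3% of measured genes lay at or below it. The differences of the partners stood 4.72 log2 units apart.

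The promoters of both U2 genes, and that of LSM4 (described with its family below), are shown because SNRPB2 and LSM4 had the lowest differences and SNRPA1 the highest of all 75 genes. Each window runs from 250 bases before to 50 bases after the start of the gene, is taken from RefSeq (GRCh38.p14) and reads along the gene's own strand. SNRPB2 lies at chr20:16729776-16730075 (+), SNRPA1 at chr15:101295199-101295498 (-) and LSM4 at chr19:18323027-18323326 (-). Capitals mark matches to CCGGAAG, the core of the motif bound by ETS factors, on either strand.
SNRPB2: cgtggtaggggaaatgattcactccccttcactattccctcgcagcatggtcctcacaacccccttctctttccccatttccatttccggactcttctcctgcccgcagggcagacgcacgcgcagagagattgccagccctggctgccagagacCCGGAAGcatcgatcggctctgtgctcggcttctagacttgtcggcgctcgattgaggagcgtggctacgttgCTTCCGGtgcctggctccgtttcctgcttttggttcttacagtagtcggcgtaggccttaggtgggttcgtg
SNRPA1: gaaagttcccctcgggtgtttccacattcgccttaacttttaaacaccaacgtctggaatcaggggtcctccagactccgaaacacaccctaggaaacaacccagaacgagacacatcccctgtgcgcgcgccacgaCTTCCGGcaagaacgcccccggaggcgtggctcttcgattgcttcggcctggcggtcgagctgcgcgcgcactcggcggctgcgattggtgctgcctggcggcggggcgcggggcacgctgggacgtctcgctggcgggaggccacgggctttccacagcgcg
LSM4: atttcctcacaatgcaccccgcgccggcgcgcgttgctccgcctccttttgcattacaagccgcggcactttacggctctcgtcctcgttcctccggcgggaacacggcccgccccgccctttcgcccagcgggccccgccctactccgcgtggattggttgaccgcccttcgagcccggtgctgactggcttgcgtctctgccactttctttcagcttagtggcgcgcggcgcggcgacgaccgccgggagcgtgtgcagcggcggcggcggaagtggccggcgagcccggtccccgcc

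SNRPB2, which was lower, held 2 matches to CCGGAAG, SNRPA1, which was higher, held 1, and LSM4, which was lower, held none. Only this exact sequence was searched for, so the near match gcggaag in the LSM4 window was not counted. CCGGAAG occurred in 26 of the 88 windows listed for the measured splicing genes (29.5%). It occurred in 18.2% of windows of all measured genes and in 10.3% of the 35097 windows in the table. Among splicing genes at least 1.5-fold lower, 7 of 29 windows (24.1%) held them, beside 19 of 59 windows (32.2%) of the others. The E-box CACGTG occurred in 10.2% of the splicing genes' windows, beside 9.62% for all measured genes and 7.25% of all windows. Of the E2F-type sequences, TTTGGCGC occurred in 2.27% (1.02% for all measured genes, 0.652% of all windows) and TTTCCCGC in 5.68% (2.47% and 1.63%). Both strands were searched, no motif contains another, 67 of the 75 genes matched the table, and some have several starts there. These are matches of letters and not shown to be sites, and their bearing on the differences was not tested.

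The U1 proteins SNRPC and SNRPA were lower as well. SNRPC, the U1 protein that steadies pairing with the upstream splice site, had 8.90 with ANO5 siRNA, against 10.04 with control siRNA (2.20-fold lower). SNRPA, which binds a stem-loop of U1 snRNA, had 12.07 with ANO5 siRNA, against 12.92 with control siRNA (1.80-fold lower). The third protein specific to U1, SNRNP70, which the symbol rule does not take, had 13.51 with ANO5 siRNA, against 13.66 with control siRNA.

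SF3A and SF3B are the large subcomplexes by which U2 snRNP holds the branch point. All 3 SF3A genes had lower signals: SF3A2 by 0.79, SF3A1 by 0.75 and SF3A3 by 0.33 on the log2 scale. SF3B split within itself. Its small subunit SF3B5 had 11 with ANO5 siRNA, against 11.99 with control siRNA, and SF3B4, which contacts RNA upstream of the branch point, had 13.95 with ANO5 siRNA, against 14.79 with control siRNA. Its largest subunit SF3B1, which clamps the branch-point helix and is often mutated in blood cancers, had 11.33 with ANO5 siRNA, against 10.97 with control siRNA. SF3B6, which lies next to the branch-point adenosine, differed by 0.39, SF3B2 by 0.11 and SF3B3 by -0.06. PHF5A, a further SF3B subunit outside the rule, had 9.13 with ANO5 siRNA, against 10.14 with control siRNA (2.01-fold lower).

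U2AF recognises the downstream splice site as a heterodimer before U2 arrives. U2AF1, the small subunit that reads the AG dinucleotide, had 12.80 with ANO5 siRNA, against 13.53 with control siRNA (1.66-fold lower). A second cluster of the same symbol gave a difference of -0.74, beside -0.73. U2AF1 has a near-identical copy in some genome builds, so these clusters need not be independent. U2AF2, the large subunit that binds the polypyrimidine tract, differed by -0.14, and U2AF1L4, a relative of U2AF1, by -0.06.

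The Sm proteins form a ring around U1, U2, U4 and U5 snRNA, and all 7 genes were measured. SNRPB was lowest of them, with 9.58 with ANO5 siRNA, against 10.44 with control siRNA (1.82-fold lower). SNRPF differed by -0.58, just within 1.5-fold, SNRPD1 by -0.35, SNRPG by -0.28, SNRPD2 by -0.16 and SNRPD3 by -0.04, and SNRPE was on the other side of 0 at 0.27. Apart from SNRPB, the ring thus lay within 1.5-fold. Sm genes have processed copies elsewhere in the genome, which probes may also read.

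PRPF genes serve the tri-snRNP and the steps of activation. PRPF3 and PRPF4 encode partner proteins of U4/U6, and both were lower by similar amounts. PRPF3 had 11.15 with ANO5 siRNA, against 12.17 with control siRNA (2.03-fold lower), and PRPF4 had 9.93 with ANO5 siRNA, against 11.08 with control siRNA (2.22-fold lower). PRPF31, which holds U4/U6 to U5, differed by -0.50, whereas PRPF6, a scaffold between U5 and U4/U6, differed by 0.14. PRPF19, the ubiquitin ligase that gives the PRP19 complex its name, had 11.18 with ANO5 siRNA, against 12.38 with control siRNA (2.30-fold lower). The related pair PRPF38A and PRPF38B differed in sign: PRPF38A, a factor of spliceosome activation, had 12.51 with ANO5 siRNA, against 12.02 with control siRNA, and PRPF38B had 10.10 with ANO5 siRNA, against 11.09 with control siRNA. PRPF18, a factor of the second catalytic step, differed by 0.54, and PRPF39, a U1-associated factor, by -0.30.

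**Figure D3:**
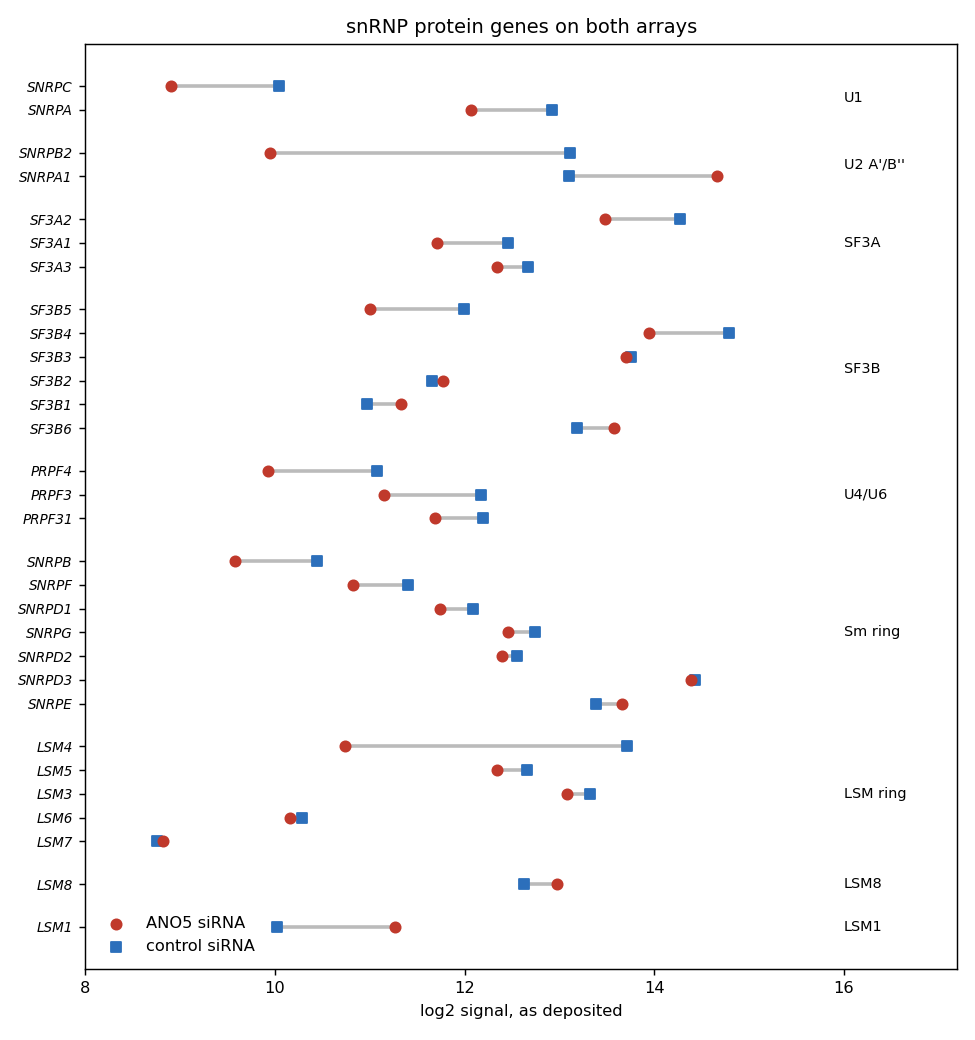
Deposited log2 signal of snRNP protein genes with ANO5 siRNA (red circles) and control siRNA (blue squares), 1 array each, grouped by complex. SNRPB2 and LSM4 show the longest gaps, at 9.95 against 13.11 and 10.74 against 13.71, and SNRPA1 and LSM1 lie to the right of their control values.

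LSM proteins form rings like those of Sm proteins. LSM2 to LSM7 are shared by a nuclear ring completed by LSM8, which binds U6 snRNA, and a cytoplasmic ring completed by LSM1, which acts in mRNA decay. LSM4 had 10.74 with ANO5 siRNA, against 13.71 with control siRNA, 7.84-fold lower, and only 0.791% of measured genes were as low. The other shared members measured were nearer 0: LSM5 differed by -0.32, LSM3 by -0.24, LSM6 by -0.13 and LSM7 by 0.06, while LSM2 was not analysed here. LSM1 had 11.27 with ANO5 siRNA, against 10.02 with control siRNA (2.38-fold higher), and LSM8 had 12.97 with ANO5 siRNA, against 12.63 with control siRNA.

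LSM genes outside these rings all lay within 2-fold. LSM10 and LSM11 belong to the U7 snRNP, which trims the ends of histone mRNAs, and differed by 0.26 and -0.74. LSM11 had 6.18 with ANO5 siRNA, against 6.92 with control siRNA, and its mean of 6.55 is the nearest to the lower limit of the measured range, where background may shrink a difference. LSM14A and LSM14B, proteins of cytoplasmic mRNA granules, differed by -0.09 and -0.32, and LSM12 by 0.14.

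Among the 10 measured SRSF genes the differences ran from -0.81 to 0.30, and none reached 2-fold, while SRSF2 was not analysed here. SRSF11, an SR-like protein, had 11.70 with ANO5 siRNA, against 12.51 with control siRNA (1.75-fold lower). SRSF6 had 12.10 with ANO5 siRNA, against 12.78 with control siRNA (1.60-fold lower), and SRSF7, the SR protein with a zinc knuckle, had 10.79 with ANO5 siRNA, against 11.42 with control siRNA (1.55-fold lower). SRSF5 differed by -0.52, SRSF1, the founding member and a known oncoprotein, by -0.45, SRSF10 by -0.39 and SRSF3 by -0.22. On the other side of 0 were SRSF8 (0.30), SRSF9 (0.17) and SRSF4 (0.16), all within 1.5-fold. SRSF4, SRSF5 and SRSF6 are close relatives, and their differences of 0.16, -0.52 and -0.68 did not run together. SRSF8 derives from a copy of another SR gene, so its probes may read more than 1 transcript.

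The hnRNP genes leaned lower too, with 17 of 21 below 0. HNRNPH3, a member of the F/H group that binds runs of G, had 13.80 with ANO5 siRNA, against 15.49 with control siRNA (3.23-fold lower). Its relatives did not follow: HNRNPH1 had 14.38 with ANO5 siRNA, against 14.63 with control siRNA, HNRNPF differed by -0.18, and HNRNPH2 had 13.13 with ANO5 siRNA, against 12.65 with control siRNA. HNRNPL, which binds CA repeats, had 12.03 with ANO5 siRNA, against 12.77 with control siRNA, while its paralogue HNRNPLL, a regulator of CD45 splicing in lymphocytes, had 10.75 with ANO5 siRNA, against 10.30 with control siRNA.

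**Figure D4:**
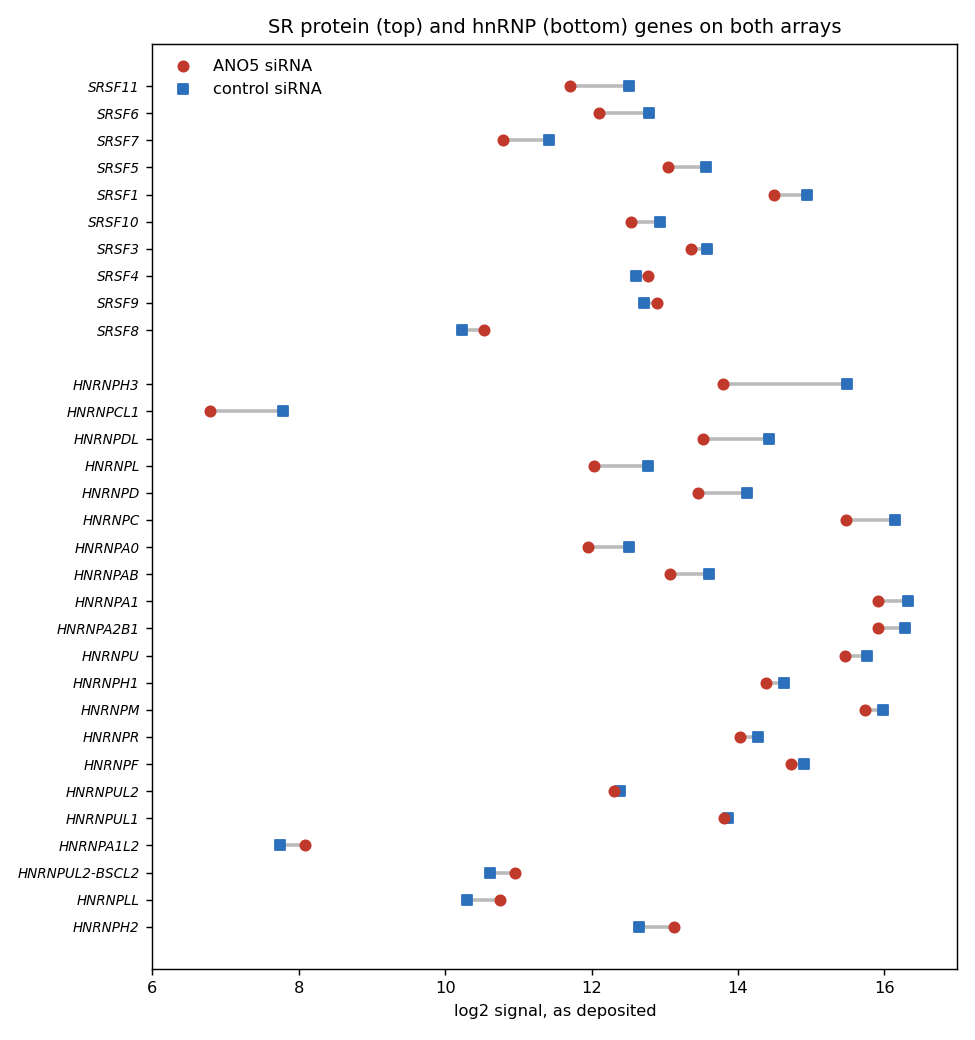
Deposited log2 signal of the 10 measured SRSF genes and the 21 measured HNRNP genes with ANO5 siRNA (red circles) and control siRNA (blue squares), 1 array each. Most red circles lie a short way left of their blue squares, and HNRNPH3 shows the widest gap, at 13.80 against 15.49.

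Other hnRNP groups were more even. The A/B group has members that often favour exon skipping. Its differences were -0.56 (HNRNPA0), -0.53 (HNRNPAB), -0.42 (HNRNPA1) and -0.37 (HNRNPA2B1), all lower and none past 1.5-fold, while HNRNPA3 was not analysed here. HNRNPA1 had 15.91 with ANO5 siRNA, against 16.33 with control siRNA, and HNRNPA2B1 had 15.92 with ANO5 siRNA, against 16.29 with control siRNA. HNRNPDL and HNRNPD, close relatives that also bind AU-rich mRNA, were 1.87-fold and 1.59-fold lower. HNRNPC, which masks cryptic exons by binding U tracts, had 15.48 with ANO5 siRNA, against 16.14 with control siRNA (1.58-fold lower). HNRNPU, HNRNPM, HNRNPR, HNRNPUL2 and HNRNPUL1 lay between -0.30 and -0.06.

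Several HNRNP entries are uncertain as genes of their own. HNRNPCL1 and HNRNPA1L2 are near copies of HNRNPC and HNRNPA1, and their probes may read the parent transcripts. HNRNPCL1 had 6.79 with ANO5 siRNA, against 7.79 with control siRNA, and HNRNPA1L2 had 8.08 with ANO5 siRNA, against 7.74 with control siRNA. HNRNPUL2-BSCL2 is a read-through of neighbouring genes that overlaps HNRNPUL2, and differed by 0.35, beside -0.08 for HNRNPUL2. The 5 genes below the measured range were PRPF40B, SRSF12, HNRNPCL4, SNRPD2P2 and HNRNPCL2, with means of 5.87, 5.525, 4.915, 4.235 and 3.555 and differences of -0.73 to -0.11.

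Splicing genes that the symbol rule does not take were followed in 8 lists, with 136 measured genes. Of these, 30 (22.1%) were at least 1.5-fold lower, beside 20.1% of all measured genes, and 14 (10.3%) were higher, beside 23.2%. Their median difference was -0.175, beside 0.07. The largest difference, that of GEMIN5, lay among the factors that assemble snRNPs in the cytoplasm, where Sm proteins are methylated by PRMT5 and its partners and loaded onto snRNA by the SMN complex.

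Of 15 measured assembly genes, 5 were lower (33.3%, beside 20.1% of all measured genes) and 2 higher (13.3%, beside 23.2%) by 1.5-fold, with a median of -0.29. GEMIN5, the SMN-complex protein that recognises snRNA, had 8.14 with ANO5 siRNA, against 11.49 with control siRNA (10.2-fold lower). GEMIN4 had 7.62 with ANO5 siRNA, against 9.96 with control siRNA (5.06-fold lower). The methyltransferase PRMT5 had 11.57 with ANO5 siRNA, against 13.73 with control siRNA (4.47-fold lower). Its cofactor WDR77 had 9.31 with ANO5 siRNA, against 10.87 with control siRNA, and CLNS1A, the chaperone that brings Sm proteins to it, had 11.96 with ANO5 siRNA, against 14.13 with control siRNA. These 3 genes of the methylating complex were thus 2.95-fold to 4.50-fold lower, while COPRS, a PRMT5 partner on histones, read 9.24 on both arrays. TGS1, which methylates the snRNA cap, was 2.30-fold higher and GEMIN7 1.67-fold higher.

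**Figure D5:**
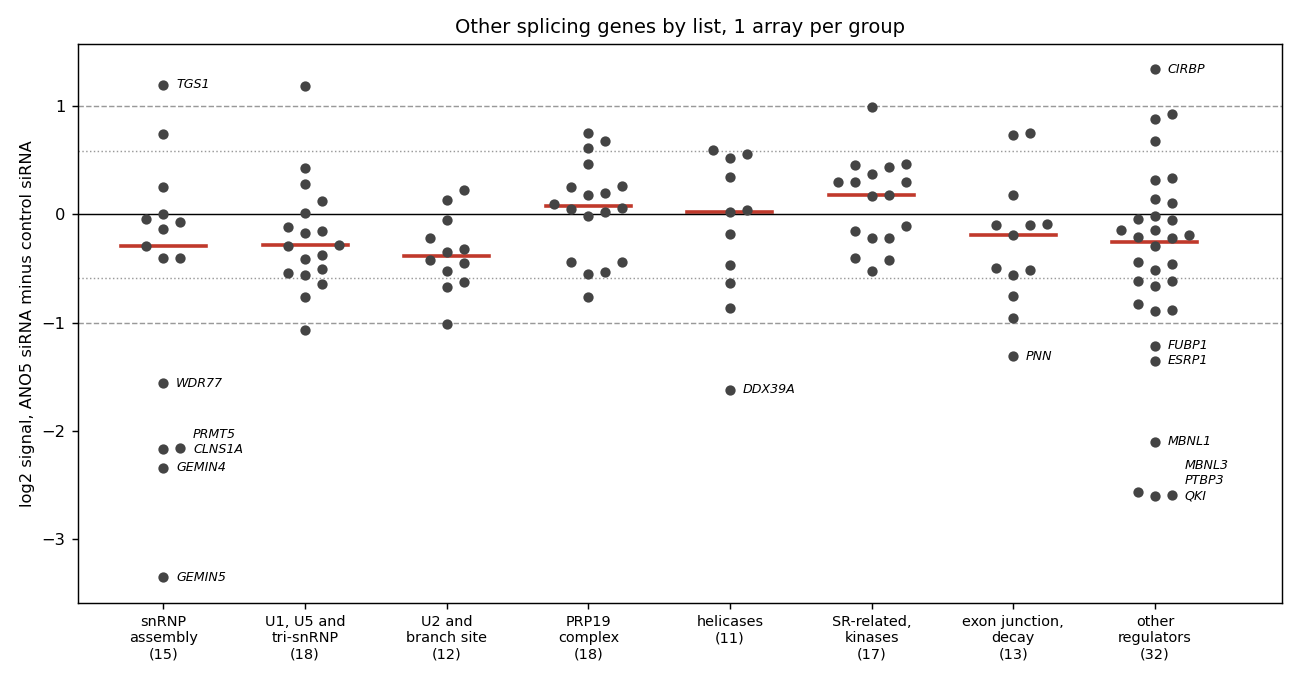
Difference in log2 signal between the ANO5 siRNA and the control siRNA array for splicing genes outside the 7 families, by list, with 1 point per measured gene, a red line at the list's median, dotted lines at 1.5-fold and dashed lines at 2-fold. GEMIN5 (-3.35), GEMIN4 (-2.34), CLNS1A (-2.17), PRMT5 (-2.16) and WDR77 (-1.56) lie below the other assembly genes.

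Medians of the other core lists ran from -0.385 to 0.08. The list of U1, U11, U5 and tri-snRNP proteins had a median of -0.285. Of its 18 genes, 3 were lower (16.7%) and 1 higher (5.56%) by 1.5-fold, beside 20.1% lower and 23.2% higher of all measured genes. SART3, which recycles U6, had 8.47 with ANO5 siRNA, against 9.54 with control siRNA, and EFTUD2, the GTPase of U5, was 1.69-fold lower, while SNRNP27, a tri-snRNP protein, had 11.25 with ANO5 siRNA, against 10.06 with control siRNA. Genes of U2 and branch-site recognition had a median of -0.385, with 3 lower (25%, near the share of all genes) and 0 higher of 12, among them SUGP1 at -0.67. The list named for the PRP19 complex leaves out PRPF19, which the symbol rule takes and which was 2.30-fold lower. It also holds factors outside that complex, such as CDC40 and SLU7. The list had a median of 0.08, with ISY1 its 1 gene lower (5.56%) and CDC40, XAB2 and SLU7 higher (16.7%) of 18. XAB2 had 6.44 with ANO5 siRNA, against 5.76 with control siRNA, so it passed the filter through its higher array, and its difference of 0.68 became 0.55, within 1.5-fold, with the pseudocount. The list of spliceosomal helicases also holds GPATCH1 and GPKOW, which are G-patch proteins and not helicases. Its median was 0.02, with 3 lower (27.3%) and 1 higher (9.09%) of 11. DDX39A, a helicase that also serves mRNA export, had 10.55 with ANO5 siRNA, against 12.17 with control siRNA (3.07-fold lower). DHX15, which takes spent spliceosomes apart, was 1.82-fold lower. Of the G-patch proteins, GPATCH1 was the 1 higher gene of the list (1.52-fold), and GPKOW was 1.55-fold lower.

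Partners of the SR proteins, taken as 1 list, did not lean lower. Of 17 SR-related genes and SR-protein kinases, 0 were lower by 1.5-fold, beside 20.1% of all measured genes, and 1 was higher (5.88%, beside 23.2%), DYRK1A, a kinase, with 11.64 with ANO5 siRNA, against 10.65 with control siRNA. The median was 0.18. The SR-related proteins were mixed in sign, with SRRM2 at -0.52 and SRRM1 at -0.42, beside SCAF8 at 0.46 and RSRC2 at 0.37. The SR kinases SRPK1, SRPK2, CLK2 and CLK4 differed by 0.17, 0.30, 0.44 and 0.47 and CLK3 by -0.40, all within 1.5-fold.

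Regulators of splice choice outside the SRSF and HNRNP families were spread about as widely as genes at large. Of 32 measured genes, 12 were lower (37.5%, beside 20.1% of all measured genes) and 4 higher (12.5%, beside 23.2%) by 1.5-fold, with a median of -0.255 and an SD of 0.97, beside 0.94 over all measured genes. QKI, a STAR-family protein, had 8.51 with ANO5 siRNA, against 11.11 with control siRNA (6.06-fold lower), and PTBP3, a relative of the polypyrimidine tract protein, had 11.96 with ANO5 siRNA, against 14.55 with control siRNA (6.02-fold lower). The muscleblind genes split: MBNL3 and MBNL1 were 5.90-fold and 4.29-fold lower, whereas MBNL2 had 14.99 with ANO5 siRNA, against 14.11 with control siRNA. ESRP1, which maintains epithelial splice forms, had 13.18 with ANO5 siRNA, against 14.53 with control siRNA (2.55-fold lower).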

How the data were processed

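The authors deposited values for 17345 transcript clusters on each array. They run from 2.13 to 18.15, and for this range the deposited values were taken as log2 signal, already summarised by the authors to 1 value per cluster. Agilent Feature Extraction 12.0.3.1 is listed in the submitters' processing notes, although the form of the cluster identifiers is that of another maker's arrays, and the sources used here do not give the background correction, the normalization or the build. Values were used unscaled, with medians of 7.68 (ANO5 siRNA) and 7.69 (control siRNA). Of the clusters, 14544 had 1 gene symbol in the platform annotation, 0 had several and 2801 had none. All 80 splicing genes matched RefSeq by Entrez identifier. SRSF2, PRPF8, HNRNPK, HNRNPA3 and LSM2, whose symbols the rule would take, were not among them. A gene with several clusters took the one with the highest mean. The limit of 6.05 is the 33rd percentile of the named genes' means. No detection call was available here.

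Splicing genes and lists were chosen with earlier results of these data known. Counts used 1.5-fold and 2-fold, with no test. Named genes were all splicing genes past 2-fold, the 2 highest and lowest differences and the 2 highest means of each family, those nearest the limit, up to 2 each way past 1.5-fold from each list, and ANO5. Genes named beyond this were chosen after their values were seen. The counting was tested on simulated data. Alternatives were 4 scalings, a pseudocount, other filters, the median over clusters, the mean and a 3-fold threshold. Tools were pandas 2.3.3 and numpy 2.4.6 in Python 3.11.15.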

Additional observations from a re-analysis of the deposited data

How the results depend on the processing

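With 1 array a group, neither leaving out a replicate nor a spread between cultures could be had. No paired analysis was possible because each group holds 1 array. A median was taken as moved where it changed by over 0.1 on the log2 scale. Of 133 values recomputed for the counts and medians, 116 stayed within this limit, or within 1.5 times for counts, and none changed sign. Several alternatives could change these values little, so this share says little about robustness. Only U2AF1 of the splicing genes had a second cluster, so the median over clusters gave nearly the same values by construction. Median centring, 75th percentile scaling and the pseudocount moved the median of all measured genes by 0.01, -0.02 and -0.001. Loess on the mean level, with a span of 0.4, moved the median of all 75 genes to -0.404, of SF3A and SF3B to -0.456, of SNRP to -0.485, of PRPF to -0.635 and of LSM to -0.23, while it moved all measured genes by -0.076. Without the filter the SNRP median was -0.465, and a stricter filter, at the 50th percentile, gave a PRPF median of -0.745 over fewer genes. The means were -0.307 for SRSF, -0.508 for SNRP, -0.31 for U2AF and -0.23 for LSM. At 3-fold, a higher threshold by construction, the counts were 3 in all, 3 lower and 0 higher. Leaving out 5 read-through or copy-like genes, chosen after seeing the data, gave a median of -0.32. Of 372 values of 62 single genes, 363 stayed on their side of 2-fold. ACIN1, DYRK1A, HNRNPCL1, PHF5A and SF3B5, which lie next to it, crossed. The same limit holds here, since the median over clusters changed only U2AF1 among these genes, from -0.73 to -0.735.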

Other observations

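The exon junction complex marks spliced mRNA, and nonsense-mediated decay reads that mark. Of 13 measured genes of both, 3 were lower (23.1%, near the 20.1% of all measured genes) and 2 higher (15.4%, beside 23.2%) by 1.5-fold. The median log2 difference was -0.19, beside 0.07 over all measured genes. PNN (pinin), a peripheral protein of the complex, had 12.32 with ANO5 siRNA, against 13.63 with control siRNA (2.48-fold lower), and ACIN1 had 9.89 with ANO5 siRNA, against 10.85 with control siRNA (1.95-fold lower). The core gene RBM8A, named after its value was seen, was 1.68-fold lower, and its partners MAGOH and MAGOHB differed by -0.56 and -0.49, whereas EIF4A3, the helicase of the core, differed by -0.09. In the decay branch, the kinase SMG1 had 12.45 with ANO5 siRNA, against 11.70 with control siRNA (1.68-fold higher), and the nuclease SMG6 was 1.66-fold higher, while UPF1, the central helicase, differed by -0.51.

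CIRBP, the cold-inducible RNA-binding protein, had 13.96 with ANO5 siRNA, against 12.62 with control siRNA (2.53-fold higher), the largest positive difference among the 136 measured genes of the 8 lists. Its cold-inducible relative RBM3, named after its value was seen, had 14.25 with ANO5 siRNA, against 13.91 with control siRNA. FUBP3 was 1.91-fold higher and its paralogue FUBP1 2.31-fold lower.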
